A study of Homo sapiens with 4 samples.

Results

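Human chromosome 19 carries the densest collection of C2H2 zinc finger genes in the genome, and the genes studied here are the protein-coding genes of this chromosome whose symbol is ZNF followed by a number and at most 1 letter. There were 246 such genes among the 58735 genes with an FPKM, a number of sequenced fragments scaled to gene length and library size. They were chosen by name and position, not by their expression, though earlier results of these data were known. The table's own transcription factor column placed 238 of them in the zf-C2H2 family. The 8 others were ZNF428, ZNF414, ZNF761, ZNF738, ZNF888, ZNF723, ZNF8 and ZNF229.

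RNA was sequenced from U251 and U87, which are established human glioblastoma cell lines, as Control and after Bru, with 1 library per condition and 4 in all. Bru is brusatol, a plant compound that lowers protein synthesis, given for 48 h at the half-inhibitory concentration. Control cells received the solvent DMSO. Each line is a single stock of cells, so no value within a line carries a replicate error. A test of Bru against Control was open only over both lines together, and the lines themselves and the difference of their responses were not tested. The libraries held 17083896 to 21453561 reads. The mesenchymal genes VIM and CD44, which such lines express, lay between 94.5 and 701 FPKM in the 4 libraries. The neural stem cell genes NES and SOX2 were at 125 and 50.6 and at 129 and 91.2 FPKM in U251 Control and Bru, against 1.46 and 0.568 FPKM for NES and 0 and 2 reads for SOX2 in U87. The glial markers GFAP, OLIG2 and S100B were low, with at most 2.42, 1.04 and 0.296 FPKM in a library, and S100B had 0 reads in 3 of the 4. The 5 markers of other cell types, PTPRC, EPCAM, PECAM1, ALB and RBFOX3, stayed under 0.5 FPKM in all 4 libraries.

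A C2H2 finger is a short loop of the protein that holds a zinc ion between a pair of cysteines and a pair of histidines, and a row of fingers reads a stretch of DNA. Many zinc finger proteins of primates also carry a KRAB box, which binds TRIM28 and through it the histone methyltransferase SETDB1 and HP1 proteins, so that the bound DNA is packed as heterochromatin. Much of that DNA is retrotransposon sequence. The genes arose by repeated tandem duplication, which is why they lie side by side in clusters and resemble one another.

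The reading frame of a finger is shown for 3 members that recur below, from the first finger followed by the usual linker in the longest coding transcript of GENCODE release 29. Capitals mark the codons of the zinc-binding cysteines and histidines. The spacing of these codons is the same in the 3 genes, while the bases between them differ.
ZNF146: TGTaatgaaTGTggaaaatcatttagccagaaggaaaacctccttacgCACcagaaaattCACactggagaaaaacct
ZNF420: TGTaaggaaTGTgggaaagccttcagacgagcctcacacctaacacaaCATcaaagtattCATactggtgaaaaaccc
ZNF554: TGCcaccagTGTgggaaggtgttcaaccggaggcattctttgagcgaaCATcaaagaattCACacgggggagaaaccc

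The longest protein of a member held a median of 12 fingers, with a range of 0 to 36, and 207 of the 246 matched a pattern written for the KRAB box. The same pattern matched 9 of 1079 proteins from chromosome 19 genes outside the zinc finger family. How many KRAB boxes it misses was not determined. ZNF208 had the most fingers.

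The starts of the genes were placed next to one another along the chromosome, and a new cluster was opened when the next member started more than 1 Mb away. This gave 9 clusters of at least 5 members and 11 scattered genes. All coordinates are those of the deposited table, which are GRCh38 positions. Cluster 1 (ZNF554 to ZNF77) held 5 members and cluster 2 (ZNF557 to ZNF846) 15. Cluster 3 (ZNF653 to ZNF791) held 25 members and cluster 4 (ZNF101 to ZNF254), next to the centromere, 37. On the long arm, cluster 5 (ZNF302 to ZNF792) held 5 members, cluster 6 (ZNF565 to ZNF573) 26, cluster 7 (ZNF575 to ZNF296) 24, cluster 8 (ZNF175 to ZNF331) 39 and cluster 9 (ZNF628 to ZNF446), at the end of the arm, 59.

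The promoters of 215 of the 246 genes were found by symbol in a RefSeq table of 300-base windows, which run from 250 bases before the start to 50 bases after it (GRCh38.p14). The letters CCAAT, searched like the others on both strands, were present in 53.5% of these windows, against 35.7% of 27305 promoters in the table. GGGCGG was present in 67.9% against 44.6%, and TATAAA in 1.86% against 11.95%. The median number of CG dinucleotides was 20 in a member's window and 14 in all windows. The letters CTACANTTC, in which N is any base, were chosen after several promoters had been read, and they were found in 26 of the 215 windows, or 12.1%, against 1.47% of all. A match describes the letters and shows no binding.

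The promoters below belong to genes on which the results turn, and capitals mark each CG. In the RefSeq windows, of which 1 was kept per symbol, ZNF146 and ZNF565 start from opposite strands within 1 region. These windows share 121 bases, and both genes were expressed in U87. The windows of ZNF565 and ZNF420 lie inside the deposited gene spans (36182060 to 36246257 and 37007857 to 37130314), not at their outer starts. Those of ZNF146 and ZNF260 also lie inside their spans (36214602 to 36238774 and 36510695 to 36528660). ZNF260 and ZNF420 lie further to the right in the same cluster and had 0 reads in U87. ZNF554 was the member past the cutoff with Bru in U87 among those that averaged 1 FPKM or more.
ZNF146, chr19:36214856-36215155, plus strand: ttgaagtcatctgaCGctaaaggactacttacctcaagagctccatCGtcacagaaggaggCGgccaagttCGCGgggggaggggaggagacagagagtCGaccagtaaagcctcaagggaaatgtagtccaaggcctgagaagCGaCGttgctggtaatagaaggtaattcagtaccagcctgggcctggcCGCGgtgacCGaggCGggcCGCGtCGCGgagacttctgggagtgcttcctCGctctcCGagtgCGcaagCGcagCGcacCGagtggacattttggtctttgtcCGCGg
ZNF565, chr19:36215035-36215334, minus strand: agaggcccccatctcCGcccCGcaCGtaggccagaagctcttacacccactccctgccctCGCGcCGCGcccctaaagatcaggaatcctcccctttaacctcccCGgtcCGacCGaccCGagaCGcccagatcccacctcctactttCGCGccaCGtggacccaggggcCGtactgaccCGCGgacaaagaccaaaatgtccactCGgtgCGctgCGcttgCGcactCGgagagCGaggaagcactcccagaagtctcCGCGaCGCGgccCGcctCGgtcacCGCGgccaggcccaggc
ZNF260, chr19:36528222-36528521, minus strand: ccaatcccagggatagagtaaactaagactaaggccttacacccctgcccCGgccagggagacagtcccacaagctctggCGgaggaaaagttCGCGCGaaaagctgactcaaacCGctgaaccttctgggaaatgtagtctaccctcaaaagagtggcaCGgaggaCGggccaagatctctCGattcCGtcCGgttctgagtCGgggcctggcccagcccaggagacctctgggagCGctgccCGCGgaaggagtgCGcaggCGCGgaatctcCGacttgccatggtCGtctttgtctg
ZNF420, chr19:37078183-37078482, plus strand: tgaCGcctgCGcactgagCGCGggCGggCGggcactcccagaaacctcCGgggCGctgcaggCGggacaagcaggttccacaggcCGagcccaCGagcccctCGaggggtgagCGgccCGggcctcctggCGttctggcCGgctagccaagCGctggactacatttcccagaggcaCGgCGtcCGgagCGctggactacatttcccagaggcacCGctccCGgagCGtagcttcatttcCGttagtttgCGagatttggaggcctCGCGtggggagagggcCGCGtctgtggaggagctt
ZNF554, chr19:2819618-2819917, plus strand: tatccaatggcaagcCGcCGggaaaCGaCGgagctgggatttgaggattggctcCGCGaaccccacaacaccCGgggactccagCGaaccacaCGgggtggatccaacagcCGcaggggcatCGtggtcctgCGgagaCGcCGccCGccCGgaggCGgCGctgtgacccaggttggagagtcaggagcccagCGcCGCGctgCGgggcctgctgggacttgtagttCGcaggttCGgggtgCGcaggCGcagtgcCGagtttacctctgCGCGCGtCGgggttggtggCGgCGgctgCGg

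CTACANTTC was present in the windows of ZNF146, ZNF260 and ZNF420 and not in those of ZNF565 and ZNF554. All 5 windows were rich in CG, with 24 for ZNF146, 32 for ZNF565, 20 for ZNF260, 30 for ZNF420 and 34 for ZNF554.

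Firstly, the number of members expressed in each library was determined. A gene was called detected with more than 3 reads, which for a member of median length corresponded to 0.0285 to 0.0344 FPKM. In U251, 224 of the 246 members were detected as Control and 226 after Bru, that is 91.1% and 91.9%. In U87, 152 and 156 were detected, that is 61.8% and 63.4%. The share of all protein-coding genes detected was nearly the same in the 4 libraries, between 67.8% and 68.7%. The 263 genes with ZNF names on other chromosomes were detected at 86.7% and 85.9% in U251 and 79.8% in both U87 libraries. Thus fewer members were detected in U87 than in U251 with or without Bru, at a similar depth.

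The share of all reads on the members followed the same order. It was 0.325% in U251 Control (95% exact binomial interval 0.323 to 0.328), 0.458% in U251 Bru (0.455 to 0.461), 0.159% in U87 Control (0.158 to 0.161) and 0.175% in U87 Bru (0.173 to 0.177). These intervals cover counting error alone. In bulk RNA, fewer expressing cells and less RNA per cell cannot be told apart.

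Of the 223 members detected in both U251 libraries, 72 had at most 3 reads in both U87 libraries, or 32.3%. Among protein-coding genes this share was 4.83% (638 of 13218), among the other protein-coding genes of chromosome 19 it was 5.72% (44 of 769), and among ZNF genes of other chromosomes 8.48% (19 of 224). The C2H2 genes of chromosome 19 with other names, which count among its other protein-coding genes, had a share of 43.8% (7 of 16) and stood above the members. When an FPKM of at least 1 was required in both U251 libraries, the share of the members was 24.7% (42 of 170), that of protein-coding genes 1.84% and that of the C2H2 genes with other names 36.4% (4 of 11). Of the 72 members, 54 had 0 reads in both U87 libraries. The reverse pattern, detected in both U87 libraries with at most 3 reads in both U251 libraries, was found for 4 of 151 members, or 2.65%, against 4.51% of protein-coding genes.

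The 5 members with the lowest U87 Control/U251 Control ratio show the size of this difference. ZNF83 stood at 8.40 FPKM in U251 Control and 7.23 in U251 Bru, and was listed at 0 in both U87 libraries. Its 1414 and 1076 reads in U251 thus stood against none in U87, where 3 reads would make its level at least 406-fold lower than in U251 Control.
ZNF544 was at 6.49 and 8.76 FPKM in U251 and had 1 read in each U87 library. ZNF260 was at 4.75 and 10.6 FPKM in U251, ZNF738 at 4.70 and 3.37, and ZNF331, an imprinted gene, at 3.92 and 4.40. These 3 genes had 0 reads in U87, which placed them at least 170-fold, 111-fold and 211-fold lower in U87 Control than in U251 Control.

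ZNF329 was the clearest case in the other direction. It had 0 and 1 reads in U251 Control and Bru against 169 and 244 in U87, with 2.17 and 3.25 FPKM in U87. The level in U87 Control was thus at least 65.4-fold higher. The 3 other members with this pattern, named here because they complete the 4, were ZNF626, ZNF541 and ZNF114, which were low in U87 as well, with at most 61 reads in a library. Among members with reads in all 4 libraries, ZNF233, named after its values were seen, had 6 and 7 reads in U251 and 112 and 125 in U87 (log2 ratio of the Controls 4.44 without a pseudocount, interval 3.27 to 5.91). It averaged under 1 FPKM. Among members that averaged 1 FPKM or more and had reads in both lines, ZNF175 was higher in U87 Control, at 4.25 FPKM against 1.92 in U251 Control (log2 ratio 1.11, interval 0.94 to 1.35). ZNF440 (log2 ratio 0.85), ZNF787 (0.64) and ZNF584 (0.52) followed.

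For the ratios below, genes were kept whose FPKM averaged 1 or more across the 4 libraries, which left 12949 genes and 152 members. The other 94 members were too low, 11 of them with 0 reads in all 4 libraries. A log2 ratio was taken on FPKM + 0.1, and its 95% exact counting interval on the reads alone, without the 0.1. Between the Controls, 77 members had a log2 ratio of U87 to U251 below -1 and 2 above 1, when 16.0% and 14.5% of all genes did. The median of the members was -1.01, and that of all genes -0.01. Since many members passed the filter through U251 alone, the median was also taken over the 122 members detected in all 4 libraries, where it was -0.81.

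**Figure D1:**
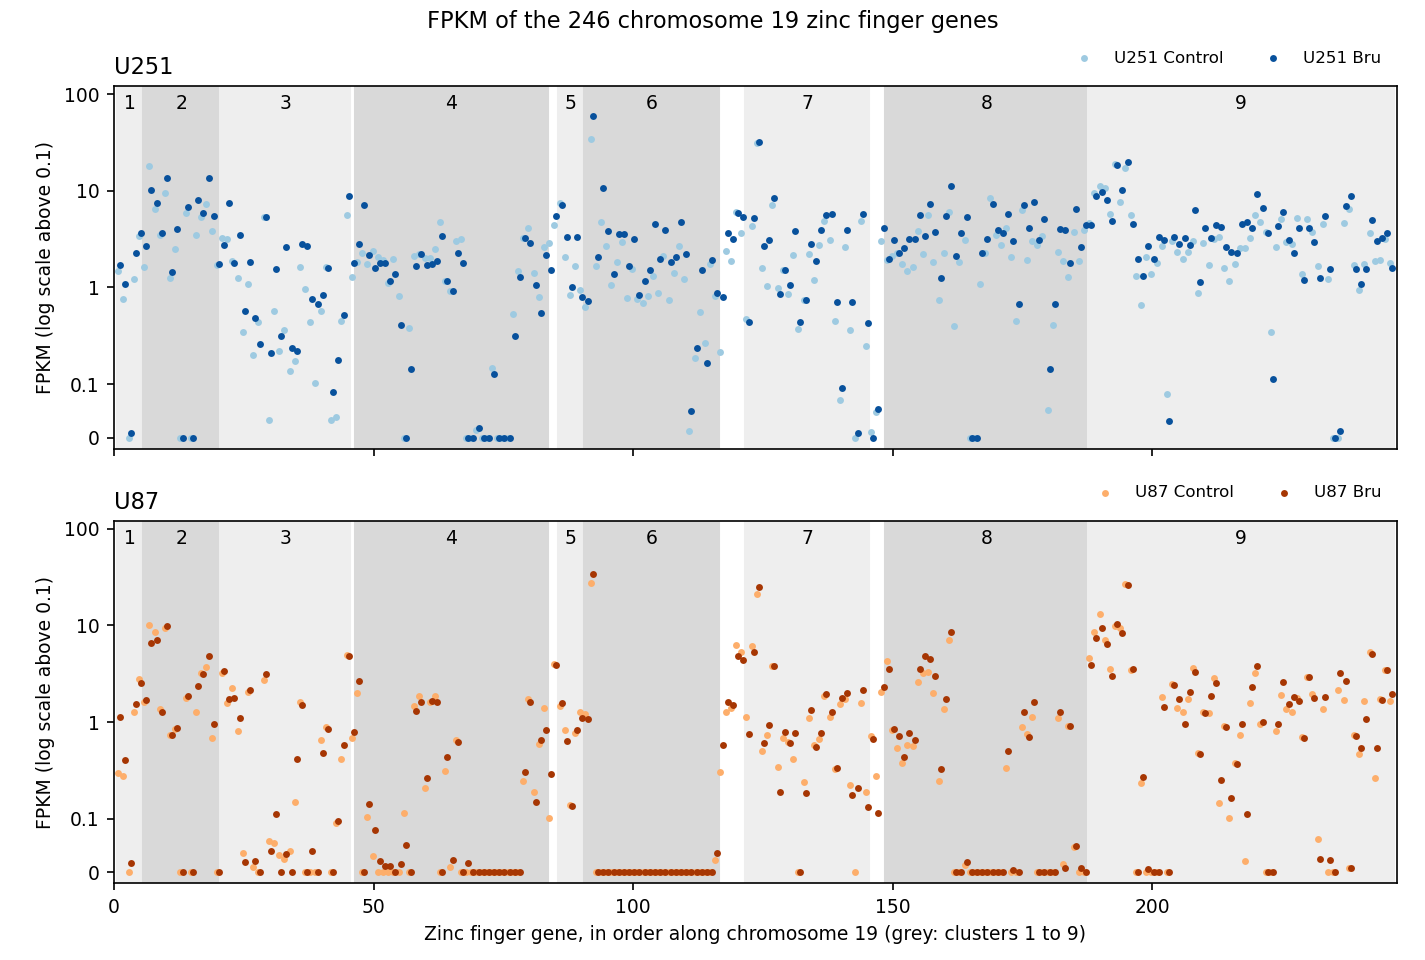
FPKM of each of the 246 members in order along chromosome 19 (horizontal axis), on a vertical axis that is logarithmic above 0.1, for U251 (blue) and U87 (orange), with Control in the pale and Bru in the dark colour; the clusters are shaded and numbered. In U87 the points of cluster 6 lie at 0 over 23 genes in a row, and stretches of clusters 4 and 8 do as well.

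The position along the chromosome was then considered. The share of members detected in both U251 libraries that were off in U87 was 0 of 4 in cluster 1, 1 of 13 in cluster 2, 9 of 23 in cluster 3, 13 of 28 in cluster 4 and 0 of 5 in cluster 5. It was 23 of 25 in cluster 6, or 92.0%. In cluster 7 it was 1 of 23, in cluster 8 it was 17 of 37, in cluster 9 it was 8 of 56, and among the scattered genes 0 of 9. Clusters 3, 4, 6 and 8 thus held 62 of the 72 genes that were on in U251 and off in U87, and clusters 1, 2, 5 and 7 held 2.

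**Figure D2:**
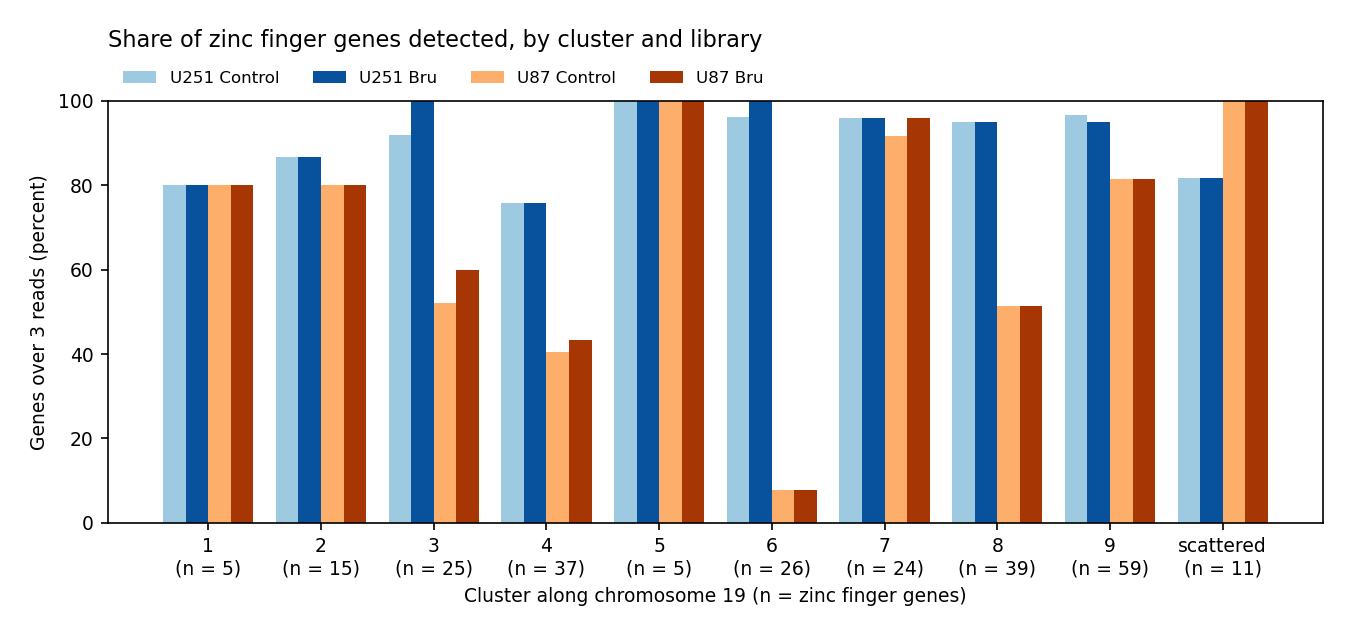
Bars give the percentage of the members of each cluster with more than 3 reads, in each of the 4 libraries (1 library per bar, without replicates). In cluster 6 the bars of U87 stand at 2 of 26 genes, while those of U251 stand at 25 and 26 of 26.

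Cluster 6 spans 1.64 Mb from ZNF565 to ZNF573. ZNF565 had 52 and 53 reads in U251 Control and Bru and 87 and 74 in U87. ZNF146, a short protein of fingers without a KRAB box, was the most highly expressed member of all, with 34.6 and 59.5 FPKM in U251 and 27.2 and 34.3 FPKM in U87. These 2 genes overlap on opposite strands, and the library kit does not mark the strand, so part of the reads of each may come from the other. From the next member, ZNF566, to ZNF607, 23 members in a row had 0 reads in both U87 libraries. Together they collected 4273 reads as Control and 6750 after Bru in U251. The last member, ZNF573, had 80 and 77 reads in U251 and 2 and 3 in U87.

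The absence of reads in U87 was not limited to the members or to coding genes. Around these genes, 60 neighbouring genes of every kind had 0 reads in both U87 libraries, from 36304580 to 37730643 on chromosome 19, between ZNF146 and ZNF573. In both U251 libraries 38 of the 60 were detected, namely 22 members, 4 other protein-coding genes and 12 genes of other kinds, with 6198 and 9324 reads in all. The 4 protein-coding genes were HKR1, ZFP14, ZFP30 and ZFP82, which are zinc finger genes under other names. The noncoding gene LINC00665 had 575 and 731 reads in U251 and 0 in U87. A count of 0 allows up to 3 reads, or 1.64e-05% of the U87 Control library, over all 60 genes. Outside the stretch, U87 expressed the neighbours, with 7805 and 6937 reads for CAPNS1 before the cluster and 1119 and 1302 for SIPA1L3 after it.

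Along each chromosome, the protein-coding genes detected in both libraries of a line were listed in order, and runs that had 0 reads in the other line were counted. The run from ZFP14 to ZNF607 held 26 genes. The next longest run absent from U87 held 7 genes, from MLLT3 to DMRTA1 on chromosome 9, and the longest run absent from U251 held 4. Among the shorter runs absent from U87 were the 5 genes from ZNF808 to ZNF600 in cluster 8, which include ZNF83, the 4 from ZNF415 to ZNF677 in cluster 8, and the 4 from ZNF43 to ZNF724 in cluster 4. The files hold RNA alone, and the cause of these runs was not tested.

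**Figure D3:**
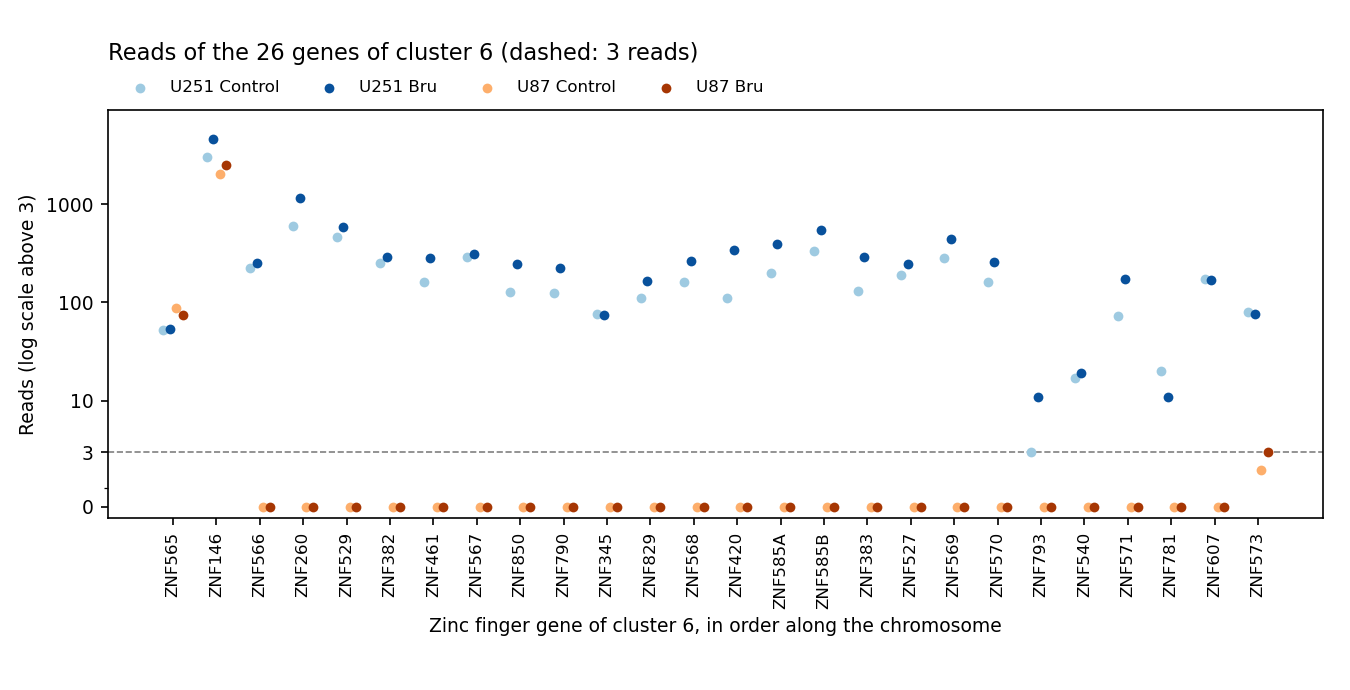
Reads of each of the 26 members of cluster 6 in order along the chromosome, in the 4 libraries, on a vertical axis that is logarithmic above 3. From ZNF566 to ZNF607 both U87 points lie at 0, while the U251 points of most genes lie between 10 and 1166 reads and the Bru point is mostly above the Control point.

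Some members stayed silent in both lines. At most 3 reads in all 4 libraries were found for 14 members. The longest run of members with at most 3 reads in both U251 libraries held 5 genes, from ZNF208 to ZNF98 in cluster 4.

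To find out how Bru changed the members in U251, the ratio of Bru to Control was examined. The median log2 ratio of the 152 members was 0.42, with an interquartile range of 0.02 to 0.72, when the median of all 12949 genes was -0.03. The ratio was above 0 for 116 members and below 0 for 36. A log2 ratio above 1 was reached by 14 members, when 3.36% of all genes did, and below -1 by 0 members, when 5.44% of all genes did. With 1 library per condition, neither count has a test within U251. The counting interval lay above 0 for 97 members, or 63.8%, against 30.9% of all genes, and below 0 for 17, or 11.2%, against 35.9%.

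The same counts were made over all members detected in both U251 libraries, with no filter on the FPKM. The interval lay above 0 for 129 of 223, or 57.8%, against 30.2% of protein-coding genes, and below 0 for 24, or 10.8%, against 36.2%. Such shares were not matched for reads, and an interval on fewer reads leaves out 0 less often. Detected members had a median of 1.94 FPKM in U251 Control, against 5.44 for detected protein-coding genes. ZNF genes of other chromosomes had a median of 0.18 in U251, and the other protein-coding genes of chromosome 19 a median of -0.09. The difference between these sets was not tested. The shift was seen at each level of expression. Members with a mean FPKM of 1 to 2, 2 to 5 and 5 or more had medians of 0.46, 0.43 and 0.24, when protein-coding genes at these levels had -0.03, -0.03 and -0.04.

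Among members that averaged 1 FPKM or more, the highest ratio in U251 was that of ZNF420. ZNF420 encodes a KRAB protein with 19 fingers and lies in the silent stretch of cluster 6. It went from 1.304 to 4.57 FPKM, or from 110 to 341 reads (log2 ratio 1.74, interval 1.50 to 2.13), and had 0 reads in U87. ZNF14, in cluster 4, went from 2.26 to 7.19 FPKM, or from 140 to 393 reads (log2 ratio 1.63, interval 1.39 to 1.96), and had 0 reads in U87 as well. Both genes thus stood higher after Bru in the line that expressed them and were listed at 0 in the other.
ZNF404 went from 1.04 to 3.11 FPKM in U251 (log2 ratio 1.50) and from 0.737 to 0.927 in U87. ZNF441 went from 1.25 to 3.49 FPKM in U251 (log2 ratio 1.42) and from 0.804 to 1.10 in U87. ZNF160 went from 3.05 to 7.66 FPKM in U251 (log2 ratio 1.299) and from 1.12 to 1.59 in U87, and its U87 interval of 0.22 to 0.80 lay above 0. All 3 genes stood higher after Bru in both lines, and the U87 intervals of ZNF404 and ZNF441 included 0.

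The 9 other members above 1 in U251 were ZNF766, ZNF627, ZNF426, ZNF260, ZNF350, ZNF816, ZNF304, ZNF616 and ZNF525, of which ZNF766, ZNF627, ZNF616 and ZNF525 are named to complete the 14. Their log2 ratios lay between 1.003 and 1.232. ZNF350, a KRAB protein known as a partner of BRCA1, went from 1.47 to 3.19 FPKM. All 14 had an interval above 0. Cluster 8 held 6 of them, clusters 3 and 6 held 2 each, and clusters 2, 4, 7 and 9 held 1 each. Since the mean FPKM includes U87, members off in that line needed a higher level in U251 to be counted. In cluster 3, ZNF844 (50 to 325 reads) and ZNF442 (14 to 83 reads) were thus left out. Their log2 ratios of 2.58 and 1.955 in U251 lay above that of ZNF420. In cluster 6, ZNF571 and ZNF383 (1.30 and 1.19) were left out. Each of these intervals lay above 0. Counts with no filter are given with the other settings below.

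Among members that averaged 1 FPKM or more, the lowest ratios in U251 stayed within the cutoff. ZNF536, a repressor of neuronal differentiation, went from 2.91 to 1.50 FPKM (log2 ratio -0.91, interval -1.18 to -0.73). ZNF358 went from 18.1 to 10.2 FPKM (-0.83, interval -1.01 to -0.66). ZNF43 went from 3.18 to 1.79 FPKM (-0.80, interval -1.04 to -0.62). ZNF253 had a log2 ratio of -0.55 and ZNF675, a protein that binds TRAF6, a ratio of -0.48. ZNF43, ZNF253 and ZNF675 belong to cluster 4.

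Cluster 4 stood apart from the others in U251. Its 15 members with a ratio had a median of -0.26, and 11 of them were below 0. The other clusters had medians between 0.21 and 0.85. Over all 28 members of cluster 4 detected in both U251 libraries, the interval lay below 0 for 14 and above 0 for 3. In the rest of the chromosome, 10 of the 195 detected members had an interval below 0. ZNF14 and ZNF101, at the left end of cluster 4, had ratios above 0 (1.63 and 0.60), and so did their neighbour ZNF506 (0.32), while from ZNF253 on no member had an interval above 0.
The highest median was that of cluster 6, at 0.85, with 9 of 9 members above 0. Over all of its 25 detected members the interval lay above 0 for 19 and below 0 for 0. In cluster 8 the median was 0.54, and the interval lay above 0 for 32 of 37 detected members and below 0 for 1. In cluster 7 the median was 0.40 and 14 of 14 members were above 0. Cluster 9, with the most genes, had a median of 0.27, and its interval lay above 0 for 31 and below 0 for 7 of 56 members.

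**Figure D4:**
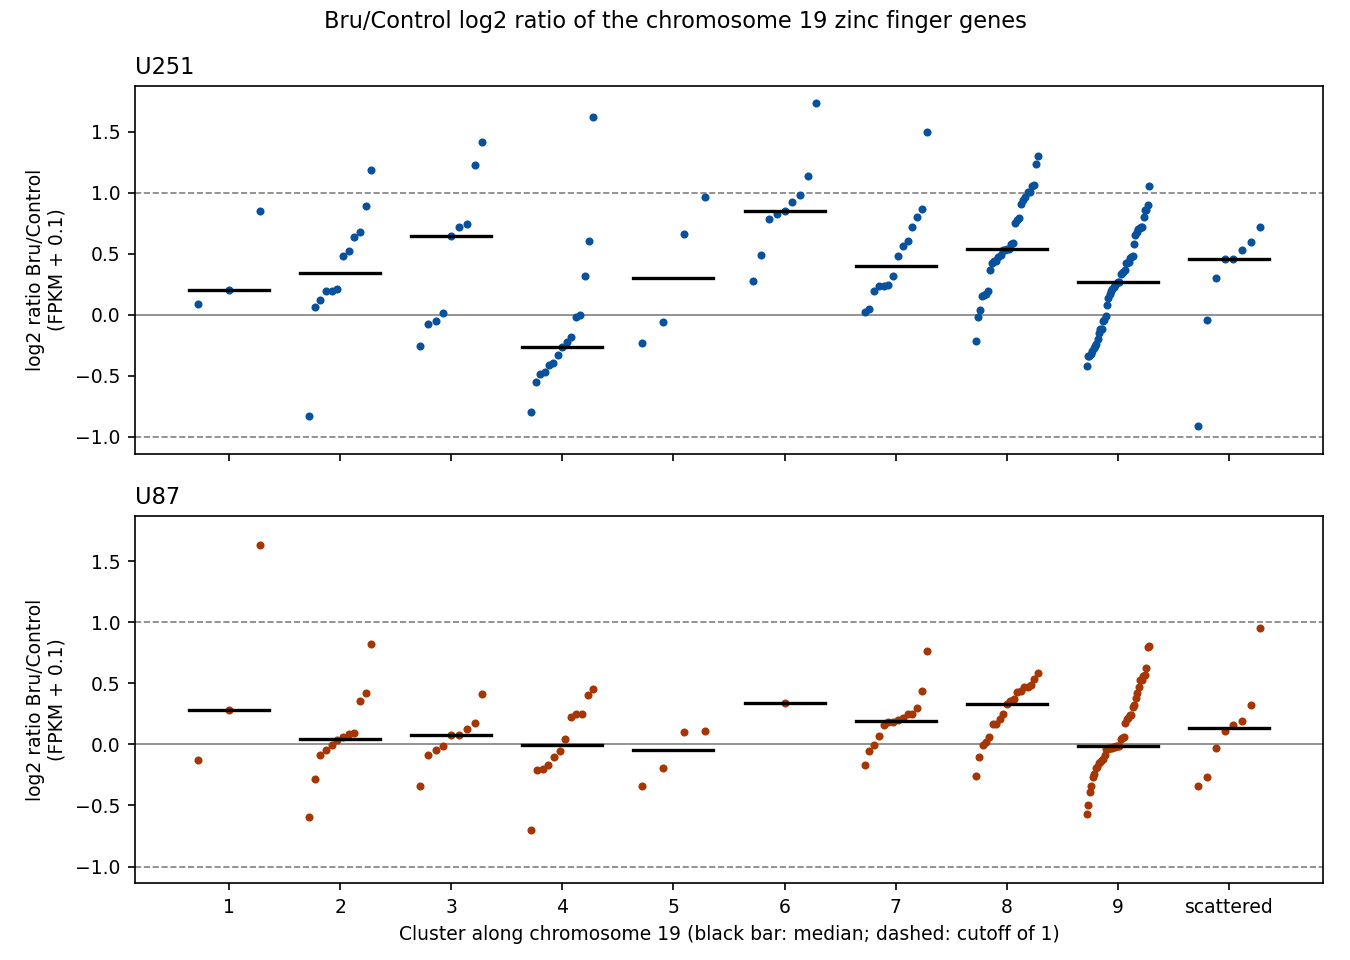
Bru/Control log2 ratio, computed on FPKM + 0.1 (vertical axis), for each member that averaged 1 FPKM or more, by cluster along the chromosome, in U251 and in U87, where members with at most 3 reads in both U87 libraries are left out. The black bars are medians and the dashed lines the cutoff of 1; in U251 the median of cluster 4 is -0.26 and that of cluster 6 is 0.85.

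The members were next grouped by their protein. In U251 the 124 members with the KRAB pattern and a ratio had a median of 0.48, and 102 of them were above 0. The 28 without it had a median of 0.02, and 14 were above 0. Members with fewer than 8 fingers had a median of 0.05, those with 8 to 14 fingers 0.37, and those with 15 or more 0.59. The pattern and the number of fingers go together, and neither was tested apart from the other. Of the members that matched the KRAB pattern and were detected in both U251 libraries, 66 of 187 were off in U87, or 35.3%. Of those without a match, 6 of 36 were off, or 16.7%. Cluster 6, where 22 of 26 members matched the KRAB pattern, held 23 of these 72 genes. Outside it the counts were 46 of 166 and 3 of 32, and the difference was not tested. The 18 members whose promoter window held CTACANTTC and that had a ratio showed a median of 0.54 in U251, and the 118 with a window that lacked it 0.37. The windows of cluster 4, whose median was -0.26, all lacked it. This contrast thus mixes with position along the chromosome, and it was not tested.

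In U87 the ratios of the members lay closer to 0. The median log2 ratio of the 152 members was 0.05, when that of all genes was -0.04. A log2 ratio above 1 was found for 1 member, when 1.92% of all genes reached it, and below -1 for 0 members, when 1.41% of all genes did. The 27 members with at most 3 reads in both U87 libraries cannot show a change there. Over the other 125, the median was 0.09, with 75 above 0 and 50 below. Over the 151 members detected in both U87 libraries, the interval lay above 0 for 27, or 17.9%, against 14.4% of protein-coding genes, and below 0 for 12, or 7.95%, against 28.3%. These shares were not matched for reads, and an interval on fewer reads leaves out 0 less often. Detected members had a median of 1.28 FPKM in U87 Control, against 5.225 for detected protein-coding genes.

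Among members that averaged 1 FPKM or more, the member above 1 in U87 was ZNF554, a KRAB protein with 7 fingers in cluster 1. It went from 0.295 to 1.13 FPKM, or from 25 to 92 reads (log2 ratio 1.64, interval 1.28 to 2.63). In U251 it stood at 1.47 and 1.71 FPKM (interval -0.12 to 0.56). The level of U87 Bru thus approached the levels of U251.
ZNF426 was higher after Bru in both lines, from 3.47 to 8.03 FPKM in U251 (log2 ratio 1.19, interval 1.06 to 1.36) and from 1.28 to 2.35 in U87 (0.83, interval 0.60 to 1.15). ZNF432 had the same ratio in both, from 2.24 to 3.42 FPKM in U251 (0.59) and from 3.21 to 4.86 in U87 (0.58), with both intervals above 0. ZNF132 went from 1.89 to 3.04 and from 0.267 to 0.538 FPKM (0.66 and 0.80). ZNF416 and ZNF222 had ratios of 0.80 and 0.77 in U87, but rested there on 1 and 5 and on 15 and 27 reads, and both intervals included 0.
ZNF358 was lower after Bru in both lines, in U87 from 10.03 to 6.61 FPKM (-0.59, interval -0.84 to -0.36). ZNF254 had ratios of -0.70 in U87 and -0.26 in U251, with both intervals below 0. ZNF524 went from 13.2 to 9.34 FPKM in U87 (-0.49) and from 11.3 to 9.60 in U251, where the interval of -0.48 to 0.01 included 0. ZNF837 and ZNF460 had ratios of -0.57 and -0.39 in U87, the latter with an interval that included 0.

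The 122 members with a ratio and more than 3 reads in all 4 libraries allow both lines to be set side by side. Their median was 0.34 in U251 and 0.08 in U87. The ratio was above 0 in both lines for 62, below 0 in both for 21, above 0 in U251 and below 0 in U87 for 29, and the opposite for 10. Across these genes, which are not independent replicates, Spearman's rho between the lines was 0.41. Among these 122 genes, the largest differences with the higher ratio in U251 were those of ZNF404, ZNF304 and ZNF816. ZNF304 and ZNF816 went from 3.03 to 6.39 and from 1.92 to 4.09 FPKM in U251, and from 3.65 to 3.29 and from 0.752 to 0.694 in U87. These differences were not tested, as each condition had 1 library.

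Bru was then tested against Control over both lines together, in a limma fit of log2(FPKM + 0.1) with the line as a block, which left 1 residual degree of freedom. With Benjamini-Hochberg adjustment over the 12949 genes, 0 of the 152 members passed 0.05 in either direction, and so did 0 of all genes. At an unadjusted p under 0.05 there were 16 members higher after Bru, or 10.5%, when 3.78% of all genes were, and 1 member lower, or 0.658%, when 6.12% of all genes were. Of the 152, 27 had at most 3 reads in both U87 libraries and cannot show a change in that line. Among the 122 members detected in all 4 libraries, 15 were higher at this limit, or 12.3%, and 1 was lower, or 0.820%. The lowest p belonged to ZNF426 (log2 difference 1.01, SE 0.20, unadjusted p = 0.0055, limma adjusted p = 0.484). The member that was lower was ZNF358 (log2 difference -0.71, SE 0.19, unadjusted p = 0.0162, limma adjusted p = 0.498). ZNF416, ZNF222, ZNF132, ZNF274, ZNF160, ZNF432 and ZNF441 were among the 16. No member thus passed the adjusted test over both lines. As no gene of any kind passed with 1 residual degree of freedom, this does not show that a shared change was absent.

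**Figure D5:**
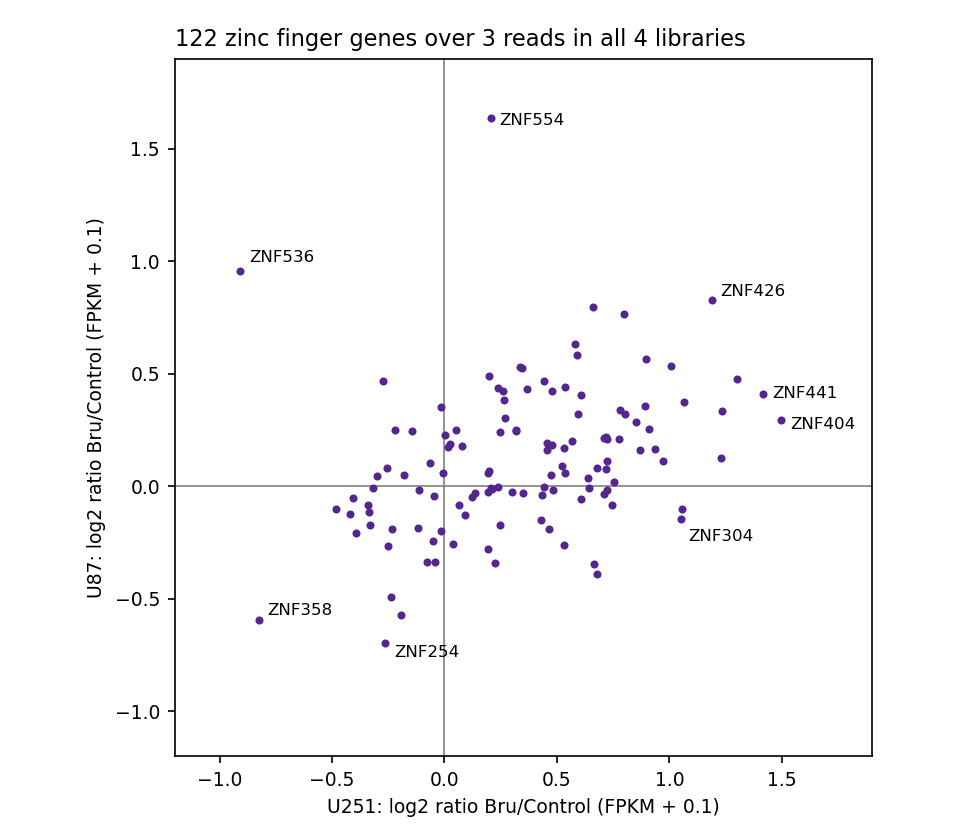
Log2 ratio of Bru to Control in U251 (horizontal axis) against U87 (vertical axis), both on FPKM + 0.1, for the 122 members with more than 3 reads in all 4 libraries; each point is 1 gene. More points lie to the right of 0 than to the left, and ZNF536 and ZNF554 lie far from the others.

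The most abundant members were mostly short proteins with few fingers. After ZNF146, the highest mean FPKM belonged to ZNF428, ZNF787, ZNF580, ZNF358, ZNF524, ZNF317, ZNF581, ZNF579 and ZNF480, and 2 of these 10 matched the KRAB pattern. ZNF428 stood at 30.9, 32.0, 21.2 and 25.2 FPKM in U251 Control, U251 Bru, U87 Control and U87 Bru. ZNF787 stood at 17.2, 19.7, 26.9 and 26.4 FPKM in the same order. The median log2 ratio of these 10 genes was 0.12 for U251 and 0.02 for U87, below that of all members in each line. ZNF480 was an exception, from 5.98 to 11.3 FPKM in U251 (log2 ratio 0.91). ZNF146 and the genes ZNF428, ZNF580, ZNF358, ZNF524 and ZNF581 share more than 10% of their exon bases with another gene, and reads there may belong to either gene.

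Several members have a known role and were listed for it, though earlier results of these data were known. ZNF274, which brings SETDB1 to the zinc finger genes themselves, was higher after Bru in both lines, from 4.66 to 7.03 FPKM in U251 (log2 ratio 0.58, interval 0.46 to 0.72) and from 1.69 to 2.68 in U87 (0.63, interval 0.43 to 0.89). ZNF91, which binds SVA retrotransposons, stood at 3.27 and 3.28 FPKM in U251 and at 0.245 and 0.304 in U87. ZNF93, which binds L1 elements, was at 2.06 and 1.78 FPKM in U251, with 0 and 2 reads in U87. Thus both of these repressors of retrotransposons were lower in U87 Control, with a log2 ratio of -3.29 for ZNF91.
A further 6 genes are known to be silenced by promoter methylation in tumours. ZNF382, ZNF154 and ZNF582 had 0 reads in both U87 libraries and ZNF667 had 0 and 1, against 249 and 289, 41 and 12, 92 and 122, and 385 and 443 reads in U251. ZNF671 and ZNF132 were expressed in both lines, with 51 and 58 and with 17 and 33 reads in U87. Methylation was not measured here. ZNF382 lies in the stretch of cluster 6 where 60 neighbouring genes of every kind had 0 reads in both U87 libraries. ZNF568, in the same stretch, had 160 and 266 reads in U251 and 0 in U87. ZNF224 (log2 ratios 0.32 in U251 and 0.25 in U87) and ZNF649 (-0.01 and 0.35) were detected in all 4 libraries.

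Finally, the partners through which KRAB proteins act were examined as a fixed list of 31 genes for TRIM28, the HP1 proteins, histone and DNA methyltransferases, NuRD and HUSH. All 31 were expressed in both lines. With Bru, 0 of 31 passed the cutoff in either direction in either line, against the shares of all genes given above. Their median log2 ratio was -0.19 in U251, with 26 below 0, and -0.10 in U87, with 27 below 0, when the medians of all genes were -0.03 and -0.04. Of all 12949 genes, 6741 were below 0 in U251 and 7337 in U87. TRIM28 stood at 123 and 108 FPKM in U251 and at 128 and 115 in U87. SETDB1 went from 3.80 to 4.12 FPKM in U251 (interval -0.06 to 0.29) and from 1.95 to 2.51 in U87 (interval 0.12 to 0.61). CBX5 (HP1 alpha) and CBX3 (HP1 gamma) had ratios of -0.08 and -0.36 in U251 and of -0.09 and -0.07 in U87, and ATRX had -0.02 and -0.05. CBX1 (HP1 beta), named after its values were seen, had ratios of -0.52 in U251 and -0.099 in U87.
The lowest ratios in U251 belonged to the DNA methyltransferases DNMT3B (3.03 to 1.48 FPKM, log2 ratio -0.99) and DNMT3A (3.48 to 1.96 FPKM, -0.79) and to UHRF1, which brings DNMT1 to replicated DNA (47.7 to 27.4 FPKM, -0.80). In U87 these 3 genes had ratios of -0.13, -0.19 and -0.02, and each interval included 0. MTA2 (0.25) and DAXX (0.13) had the highest ratios in U251. In U87, SUV39H1 had a ratio of -0.46, CHD4 of -0.30 and ATF7IP of -0.28, while DNMT1 had a ratio of 0.05.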

How the data were processed

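The authors deposited FPKM per gene for 4 libraries, with gene lengths, from RNA sequenced with a kit that does not mark strand. The submitters' processing notes name HISAT2 2.0.5, StringTie 1.3.3b, featureCounts 1.5.0-p3, DESeq2 1.16.1 and the build hg18, without their roles. However, the coordinates equalled those of GENCODE release 29 (GRCh38) for 58724 of 58735 genes and for all 246 members, and were used as such. FPKM multiplied by length was a whole multiple of 1 step for 100% of the values above 0, within 0.001 reads, which gave reads per gene. The library sizes inside the FPKM were 20974002, 18533374, 18070193 and 17406238.

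Ratios used FPKM + 0.1, a log2 cutoff of 1 and genes averaging 1 FPKM or more. Intervals are exact Clopper-Pearson intervals of the 95% level on the reads of 2 libraries, without any error between cultures. Where a library had 0 reads, the fold bound was set with 3 reads in that library. Within a line no test was run, since each condition had 1 library. Over both lines, limma 3.58.1 (R 4.3.3) fitted log2(FPKM + 0.1) with line and treatment as terms, which treats the lines as replicates of Bru, an analysis chosen after the data were seen and tested on simulated data. Fingers, the KRAB pattern and shared sequence came from GENCODE transcripts, and promoters from RefSeq. Python 3.11.15, numpy 2.4.6, pandas 2.3.3, scipy 1.17.1, matplotlib 3.10.9 and Biopython 1.88 were used, and the recovery of reads was tested on simulated data.

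The members and the lists were chosen with earlier results of these data known. The named genes were the 10 with the highest mean FPKM, the 5 largest rises and falls in each line, in both lines and between Controls, the 5 largest differences between lines in each direction, genes with a textbook role, and 5 corepressors with the 3 largest rises and falls of that list. ZNF233, ZNF442, ZNF844 and CBX1 were chosen after their values were seen. So were neighbours and other members of cluster 6, cluster ends, the genes that complete a count and the promoters printed.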

Additional observations from a re-analysis of the deposited data

Results flagged for a closer look

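In 3 members the ratio of Bru to Control went in opposite directions in the lines, with the counting interval above 0 in one line and below 0 in the other. The difference was not tested, as each condition had 1 library, and its cause was not tested. The share of all genes with this pattern was not determined. The 3 members thus cannot be called more or fewer than among genes in general. ZNF536, which lies outside the clusters on the long arm, had 526 and 240 reads in U251 Control and Bru and 16 and 44 in U87, with log2 ratios of -0.91 (U251) and 0.96 (U87). The difference, U87 minus U251, was 1.87 on the log2 scale of FPKM + 0.1, and its U87 levels of 0.103 and 0.293 FPKM were near the 0.1 that was added. ZNF526 had 329 and 424 reads in U251 and 409 and 327 in U87, with ratios of 0.53 and -0.26 and a difference of -0.80. ZNF71 had 345 and 358 reads in U251 and 203 and 152 in U87, with ratios of 0.22 and -0.34 and a difference of -0.57. ZNF526 and ZNF71 were named because of this pattern, after their values were seen.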

How the results depend on the processing

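With the line as a replicate block, a fit chosen after the data were seen, 0 members passed limma's adjusted test of Bru against Control, and 16 higher and 1 lower had an unadjusted p under 0.05. Without the block 0 passed and 0 had such a p. No replicate could be left out, since a fit on 3 libraries leaves no residual degree of freedom. Of 164 summary values recomputed under another setting, 138 moved by less than the median half-width of the counting interval, or, for counts, stayed within 1.5 times. Of the medians that exceeded this half-width as reported, none turned its direction. Smaller medians could turn. The median of the members in U87, 0.047 as reported, was -0.0086 at a minimum mean FPKM of 5. The number of members above 1 with Bru in U251 (14) was 7 with a pseudocount of 1, 24 at a minimum mean FPKM of 0.1, 25 with no filter and 0 at a minimum of 5, and 22 where the minimum of 1 was taken over the 2 libraries compared, a setting added after the data were seen. The number in U87 (1) was 0 with a pseudocount of 1, at a minimum of 5 and over the 2 libraries compared, 4 with a pseudocount of 0.01, 2 at a minimum of 0.1, 3 with no filter and 2 when scaled to the 75th percentile of expressed genes. That scaling moved the median of all genes in U87 to 0.10. The number below -1 in U251 (0) was 1 at a minimum of 0.1 and with no filter. At a minimum of 5, where 19 members remained, the lowest and highest cluster medians in U251 were -0.0073 and 0.36, and the median between the Controls was -0.19. With an FPKM of at least 1 as the limit of detection, 88 members were detected in each U87 library. The share of reads on the members was 0.335%, 0.469%, 0.166% and 0.182% of the reads without mitochondrially encoded genes in U251 Control, U251 Bru, U87 Control and U87 Bru, and 0.333%, 0.441% and 0.172% of the library size inside the FPKM in U251 Control, U251 Bru and U87 Bru. For the single genes named, 670 of 686 values moved by less than the half-width of their own interval. None of those with a reported log2 ratio above 1 or below -1 turned its direction, and smaller ratios were not checked for this. The causes of these changes were not tested.

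Some 67 members share more than 10% of their 50-base stretches with other transcripts, so that their reads are uncertain. They include ZNF358 and ZNF536, with 28.6% and 12.3%. At a depth of 17083896 to 21453561 reads, members with few reads cannot show a change.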
